A study of Homo sapiens with 2 samples.

Results

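The proteasome is the protease that degrades ubiquitin-tagged proteins in the cytosol and nucleus. The constitutive proteasome subunit genes described here were all genes listed as PSMA, PSMB, PSMC or PSMD followed by digits, without the catalytic subunits PSMB5, PSMB6 and PSMB7, their interferon-inducible replacements PSMB8, PSMB9 and PSMB10, and PSMB11. The rule gave 32 of the 36601 genes in the deposited count matrix. They comprise the outer-ring alpha subunits of the core (PSMA1 to PSMA8), the non-catalytic beta subunits of the core (PSMB1 to PSMB4), the ATPases of the cap's base (PSMC1 to PSMC6), 3 non-ATPase subunits of the base, 8 subunits of the lid, and PSMD5, PSMD9 and PSMD10, chaperones that help assemble the base. Counts were of unique molecular identifiers (UMIs), 1 per captured RNA molecule at its 3' end. A member's level is given as CPM, its UMIs summed over cells per 1000000 gene UMIs of those cells. In all, 31 of the 32 members had 30 UMIs or more. The exception was PSMA8, which encodes an alpha subunit found mainly in testis. It had 0 UMIs in 2994 cells, which allows a level of up to 0.103 CPM (3 counts).

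As background, the core is a barrel of stacked rings whose alpha rings gate entry and whose beta rings hold the proteolytic sites. The cap recognises ubiquitin, removes it, and unfolds and threads the substrate into the core. Interferon gamma is known to induce the replacement beta subunits and the PSME1 and PSME2 activator, which changes the peptides made for MHC class I. Proteasome genes are also known to be raised together by the transcription factor NFE2L1 when proteasome activity is low.

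The cells came from tumours of OVCAR5, an established ovarian carcinoma cell line, that carried an IFNy-sensing reporter and CFP. The tumours grew in NSG-B2m-/- mice, which lack B2m and the lymphocytes of a normal host. The labels list 13 tumours injected with cytokine or left unexposed: 3 given 10 ng/ml TNFa for 6 h, 2 given 100 ng/ml IFNy with 10 ng/ml TNFa for 6 h, 2 given 100 ng/ml IFNy for 24 h, 1 given it for 48 h, and unexposed tumours at 6 h (2), 24 h (2) and 48 h (1). All were marked with hashtag antibodies, pooled, sorted for CFP+ tumour cells (called bystander cells in the labels) and run as 1 library. The treatment field of each of the 2 library records names a single condition (an in vitro unstimulated one, and TNFa for 6 h), which goes against the description of a pool. All results are therefore of 1 cell line in 1 library.

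Cells carried pairs of hashtags, and 13 pairs held 50 cells or more. The sources used here do not tie a pair to a tumour, so the pairs cannot be called treated or unexposed from labels, and no p-value was computed. Instead, 5 pairs are called interferon-type because interferon genes were high in them in earlier results of these data. They were HTO2+HTO8, HTO2+HTO9, HTO4+HTO8, HTO4+HTO9 and HTO3+HTO6. On a list of 22 interferon genes that held no proteasome gene, their summed levels were 29971, 25541, 21013, 22434 and 9921 CPM, against 3671 to 6551 CPM (median 4550) in the 8 other pairs. HTO3+HTO6 was thus the weakest of the 5. Of the other pairs, HTO2+HTO5, HTO2+HTO6 and HTO2+HTO7 are called NF-kB-type, with 2064, 8787 and 7004 CPM of a list of 10 NF-kB target genes, and the other 5, at 451 to 725 CPM, are called quiet. HTO2+HTO8 and HTO2+HTO9 were high for both lists, at 5429 and 6733 CPM of NF-kB targets, while the other interferon-type pairs had 587 to 970 CPM.

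The pairs held 110 to 507 cells and 765923 to 5058403 UMIs, with a median of 6434.5 to 9450 UMIs per cell and a median mitochondrial share of 14.3% to 15.6%. The filters passed 24.3% of the barcodes of HTO3+HTO6, the lowest share, and 58.2% of those of HTO4+HTO7, the highest. All 10 epithelial markers were found, at a summed 3878 to 7568 CPM per pair. Their median was 4364 CPM in the interferon-type pairs and 5837 CPM in the others. Markers of other cell types were low: up to 36.0 CPM for fibroblasts (6 of 6 markers above 0), 40.5 to 72.5 CPM for macrophages or monocytes (7 of 7), up to 6.87 CPM for endothelium (4 of 5, KDR at 0), up to 1.16 CPM for T cells (3 of 5, CD3E and CD2 at 0) and up to 0.674 CPM for neutrophils (2 of 4, CSF3R and S100A12 at 0). All markers were human genes, so they cannot show whether cells of the mouse host were present. Genes that mark mitosis, a list of 10, summed to 275 to 1035 CPM in the interferon-type pairs and 635 to 1595 CPM in the others.

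Promoters of 4 members are shown because their genes bracket the results that follow. They run from 250 bases before to 50 bases after the start site in RefSeq (GRCh38.p14), which held 29 of the 32 members and not PSMA7, PSMB1 and PSMD2. PSMA4 had the highest and PSMD6 the lowest ratio of interferon-type to other pairs among members with 300 UMIs or more. PSMB4 and PSMA6 were added after their values were seen, PSMB4 for sharing a motif with PSMA4 and PSMA6 for its level in NF-kB-type pairs. PSMA4 lies at chr15:78540155-78540454 (+ strand), PSMB4 at chr1:151399323-151399622 (+), PSMA6 at chr14:35292067-35292366 (+) and PSMD6 at chr3:64023445-64023744 (- strand, printed 5' to 3' along the gene). Capitals mark matches on either strand to 4 motifs: a STAT site (GAS, TTCNNNGAA), an interferon-stimulated response element (ISRE, GAAA, any 2 bases, GAAA), an NF-kB site (GGGA, any 4 bases, CC) and an antioxidant response element (ARE, TGANNNNGC), the last being bound by NFE2L1 and NFE2L2.
PSMA4: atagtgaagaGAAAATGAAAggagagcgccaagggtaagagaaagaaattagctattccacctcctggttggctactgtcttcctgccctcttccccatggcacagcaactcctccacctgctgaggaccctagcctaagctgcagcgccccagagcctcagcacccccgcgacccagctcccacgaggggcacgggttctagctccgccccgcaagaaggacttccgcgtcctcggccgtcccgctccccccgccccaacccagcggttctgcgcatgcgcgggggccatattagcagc
PSMB4: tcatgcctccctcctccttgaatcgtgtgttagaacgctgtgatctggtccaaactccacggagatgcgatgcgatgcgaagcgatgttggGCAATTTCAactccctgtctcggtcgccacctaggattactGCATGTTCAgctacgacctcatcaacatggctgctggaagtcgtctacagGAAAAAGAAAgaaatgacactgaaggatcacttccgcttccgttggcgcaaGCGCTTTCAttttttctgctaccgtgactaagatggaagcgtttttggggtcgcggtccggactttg
PSMA6: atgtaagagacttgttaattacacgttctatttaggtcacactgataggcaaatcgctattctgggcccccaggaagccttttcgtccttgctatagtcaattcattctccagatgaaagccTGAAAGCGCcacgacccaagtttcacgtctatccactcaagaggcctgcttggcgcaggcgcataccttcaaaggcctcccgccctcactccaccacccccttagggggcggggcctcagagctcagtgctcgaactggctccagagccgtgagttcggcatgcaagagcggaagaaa
PSMD6: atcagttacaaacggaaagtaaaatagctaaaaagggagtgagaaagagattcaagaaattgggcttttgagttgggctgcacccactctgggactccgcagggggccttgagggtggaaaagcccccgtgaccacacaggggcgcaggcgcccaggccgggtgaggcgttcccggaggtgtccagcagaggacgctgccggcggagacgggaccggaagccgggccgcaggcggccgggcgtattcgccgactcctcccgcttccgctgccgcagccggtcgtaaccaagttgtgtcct

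With the start site as position 0, the capitals in PSMA4 are an ISRE match at -240 to -231. PSMB4 has an ISRE match at -68 to -59 and 3 ARE matches, PSMA6 has an ARE match at -128 to -120, and PSMD6 has a match to none of the 4. PSMA4 and PSMB4 were the 2 of 29 member promoters (6.90%) with an ISRE match, against 3.65% of all 27305 promoters of that length. GAS matched in 4 members (13.8%, against 7.88% of all), NF-kB in 6 (20.7%, against 25.1%) and ARE in 17 (58.6%, against 42.1%). CCAAT, the box bound by NF-Y, matched in 14 (48.3%, against 35.7%), in PSMA5 also within an ARE match. These matches are letters in a window and not measured binding, and they carry no test.

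The core subunits were higher in interferon-type pairs and the cap subunits were not. The 12 core genes summed to 5838 CPM in HTO2+HTO8, 5329 in HTO2+HTO9, 5103 in HTO4+HTO8, 5078 in HTO4+HTO9 and 4204 in HTO3+HTO6. In the 8 other pairs they ranged from 4051 to 4674 CPM (median 4314), so 4 of the 5 interferon-type pairs were above every other pair and HTO3+HTO6 was within their range. The ratio of medians was 1.18. The 17 cap genes summed to 2753, 2878, 2677, 2594 and 2972 CPM in the same 5 pairs, against 2750 to 3182 CPM (median 3026) in the others, a ratio of 0.910. Cap levels overlapped, with HTO4+HTO8 and HTO4+HTO9 below every other pair. As a scale for both ratios, the median gene of the 13596 with 30 UMIs or more had a ratio of 0.933, and the median of the 31 members was 0.985.

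**Figure D1:**
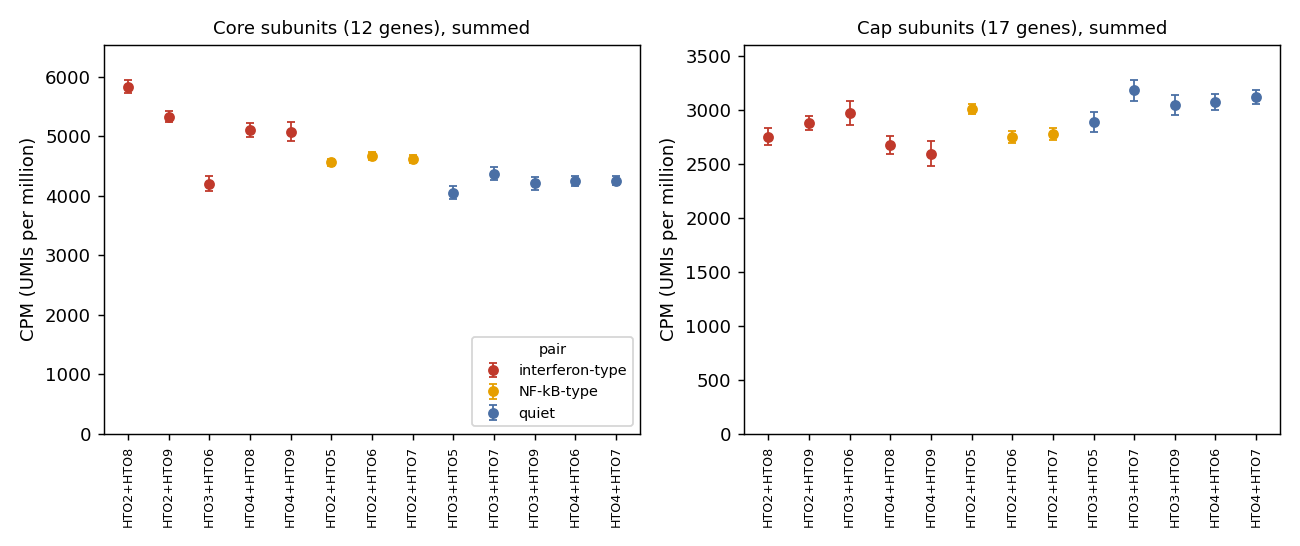
Summed level of the 12 core genes (left) and 17 cap genes (right) in each hashtag pair, in CPM; points are pairs, coloured by kind, and bars are exact 95% Poisson intervals that cover counting error only. The core level is 5078 CPM or more in 4 interferon-type pairs and 4674 CPM or less in the remaining pairs, while cap levels of the kinds overlap.

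The ratio of core to cap within a pair does not depend on the total used for scaling. It was 2.12 in HTO2+HTO8, 1.85 in HTO2+HTO9, 1.91 in HTO4+HTO8 and 1.96 in HTO4+HTO9. In the 5 quiet pairs it was 1.36 to 1.40, and in HTO3+HTO6 it was 1.41. The NF-kB-type pairs lay between, at 1.52 in HTO2+HTO5, 1.70 in HTO2+HTO6 and 1.66 in HTO2+HTO7. By this measure the 13 pairs fell in the order quiet, NF-kB-type, strong interferon-type, with HTO3+HTO6 beside the quiet pairs. Every NF-kB-type pair carried HTO2, and every quiet pair carried HTO3 or HTO4. The order of those kinds therefore cannot be told apart from the first hashtag.

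Single members seldom passed the rules used for calls. By the stricter rule, under which every interferon-type pair must lie above every other pair, 0 of 31 members were called higher (background 0.765% of 13596 genes) and 0 lower (0.846%). By a ratio of medians of 1.5 or more, 2 of 31 were called higher, PSMA4 and PSMA6, which is 6.45% of members against a background of 7.02%, and 0 were lower (11.8%). Among genes with 1000 UMIs or more the backgrounds of the 1.5-fold rule were 4.5% higher and 2.9% lower. Shares this near the background are no result about the members as a set. HTO3+HTO6 decided the first count: without it, PSMA1, PSMA2, PSMA4 and PSMA5 were above every other pair (4 of 31, 12.9%, against 3.01% of all genes and 5.5% of those with 1000 UMIs or more) and PSMD1 was below (1 of 31, against 3.58% and 6.5%). All 4 were alpha subunits of the core. Against the quiet pairs alone, PSMA3 to PSMA6 passed 1.5-fold (4 of 31, against 8.73%) and PSMA5 did not overlap (1 of 31, against 1.89%).

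**Figure D2:**
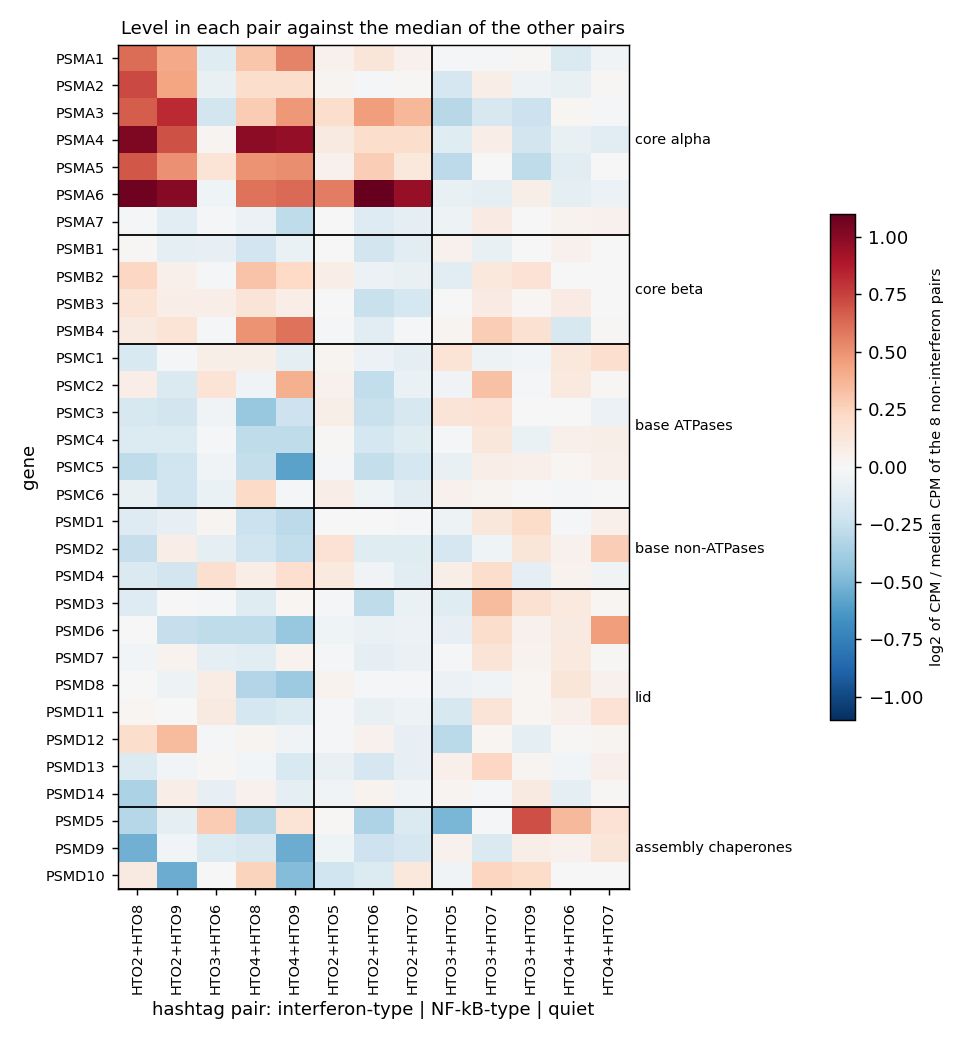
Log2 of each member's CPM in a pair over its median CPM in the 8 pairs that were not interferon-type; rows are the 31 members with 30 UMIs or more, grouped by role, and columns are the pairs, grouped by kind. The red block holds PSMA1 to PSMA6 in 4 interferon-type pairs, with PSMA6 and PSMA3 also red in NF-kB-type pairs, while PSMA7 and most cap rows stay pale.

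Among the alpha subunits, 6 of the 7 detected had a ratio above 1, with a median of 1.39, against 1.08 for the 4 beta subunits. PSMA4 encodes an alpha-ring subunit and had 722, 577, 700, 693 and 361 CPM in HTO2+HTO8, HTO2+HTO9, HTO4+HTO8, HTO4+HTO9 and HTO3+HTO6. The 8 other pairs had 308 to 406 CPM (median 354). Only HTO3+HTO6 overlapped them, and the ratio of medians was 1.96 (log2 0.97). PSMA4 also had the largest ratio of any pair to any other among members with 1000 UMIs or more, 2.35-fold from HTO3+HTO9 to HTO2+HTO8 (95% interval of the counts 2.1 to 2.63). The gene lies at chr15:78540405-78552419 in GENCODE 29 (GRCh38), with no overlapping gene and no pseudogene named after it.

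PSMA6, another alpha subunit, had a different pattern over the pairs. It had 853, 814, 616, 627 and 393 CPM in the interferon-type pairs in the same order, against 378 to 873 CPM (median 406) in the others, a ratio of 1.54. The highest pair of all was NF-kB-type HTO2+HTO6 at 873 CPM, followed by HTO2+HTO8 and HTO2+HTO9, then NF-kB-type HTO2+HTO7 at 792 CPM, and neighbours in this order had overlapping intervals. HTO2+HTO5 had 602 CPM. The 5 quiet pairs were at 378 to 425 CPM, and HTO3+HTO6 lay among them. The counts of PSMA6 may be shared with its 4 named pseudogenes and with AL121594.1, which overlaps it on the same strand.

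PSMA5 had 295, 261, 259, 262 and 203 CPM in the interferon-type pairs and 151 to 221 CPM (median 184) in the others, a ratio of 1.42. It was the 1 alpha subunit whose level in HTO3+HTO6 was above all 5 quiet pairs, which had 151 to 185 CPM. Its interval in HTO3+HTO6 (176 to 234 CPM) overlapped that of the highest quiet pair, HTO3+HTO7 (163 to 209 CPM). PSMA1 had 298, 261, 240, 285 and 177 CPM against 175 to 213 CPM (ratio 1.34), PSMA2 had 683, 558, 471, 473 and 390 CPM against 364 to 434 CPM (1.15), and PSMA3 had 428, 477, 326, 375 and 235 CPM against 217 to 371 CPM (1.39). For PSMA1 and PSMA2 the 4 strong interferon-type pairs were above every other pair. PSMA3 overlapped HTO2+HTO6 and HTO2+HTO7, and it shares its locus with the antisense gene PSMA3-AS1. On the same strand, AC018523.2 overlaps PSMA1, AC010132.3 overlaps PSMA2 and AL132989.1 overlaps PSMA3. PSMA2 has 3 named pseudogenes and PSMA3 has 1, so the counts of PSMA1, PSMA2 and PSMA3 may also be shared.

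PSMA7 did not follow the other alpha subunits. It had the most UMIs of all members, with 1010, 937, 977, 842 and 1013 CPM in the interferon-type pairs against 927 to 1089 CPM (median 1023) in the others. The groups overlapped and the ratio was 0.956. Its whole range over the 13 pairs was 1.29-fold. Without PSMA7, the summed alpha subunits had a ratio of 1.52, against 1.26 with it.

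**Figure D3:**
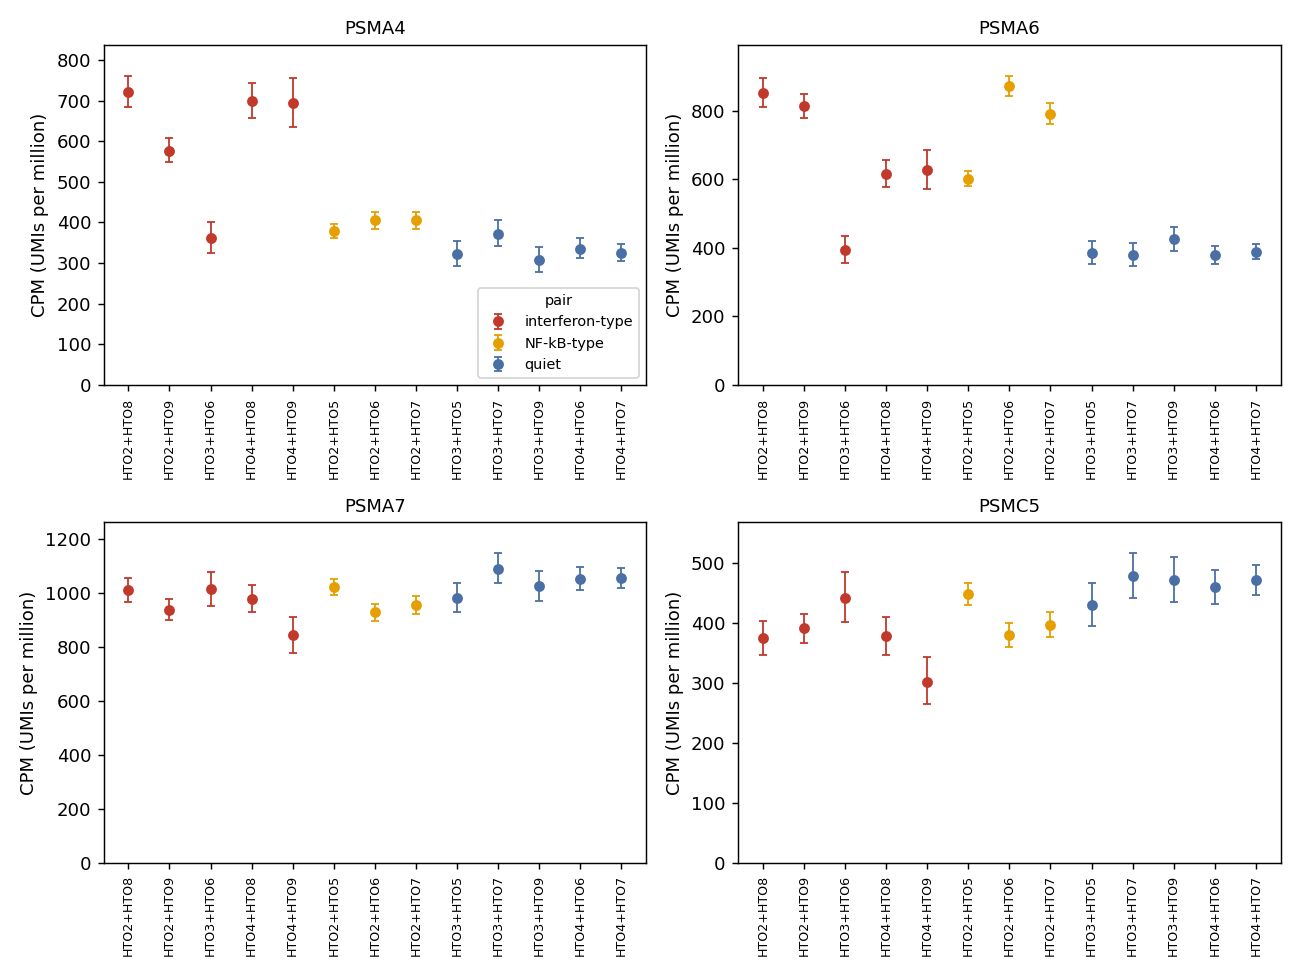
CPM of PSMA4, PSMA6, PSMA7 and PSMC5 in each hashtag pair; points are coloured by kind of pair and bars are exact 95% Poisson intervals that cover counting error only. PSMA4 is at 577 CPM or more in 4 interferon-type pairs and at 406 CPM or less in the remaining pairs, PSMA6 is also high in the NF-kB-type pairs, and PSMA7 and PSMC5 are not higher in either.

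The beta subunits moved less. PSMB3, the beta member with the most UMIs, had 671, 635, 665, 635 and 636 CPM in the interferon-type pairs and 510 to 644 CPM (median 604) in the others, a ratio of 1.05. PSMB2 had a ratio of 1.16 and PSMB1 one of 0.940. PSMB4 differed between the interferon-type pairs themselves. It had 102 and 105 CPM in HTO2+HTO8 and HTO2+HTO9, 133 and 144 CPM in HTO4+HTO8 and HTO4+HTO9, and 93.7 CPM in HTO3+HTO6. The other pairs had 83.5 to 114 CPM, so the HTO4 interferon-type pairs stood above all of them and the HTO2 ones did not.

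Of the 17 cap genes, 3 had a ratio above 1 and 14 below it, between 0.826 and 1.05, and no cap gene passed 1.5-fold in either direction. Of all 13596 genes tested, 8511 (62.6%) were also below 1, and their median ratio was 0.933 against 0.963 for the cap genes. PSMC5, a base ATPase, had 374, 391, 378, 302 and 442 CPM in the interferon-type pairs and 379 to 478 CPM (median 454) in the others, a ratio of 0.833. HTO2+HTO8, HTO4+HTO8 and HTO4+HTO9 were below every other pair, of which NF-kB-type HTO2+HTO6 was the lowest, and HTO2+HTO9 and HTO3+HTO6 were not. The intervals of HTO2+HTO8 (347 to 403 CPM) and HTO4+HTO8 (347 to 410 CPM) overlapped that of HTO2+HTO6 (360 to 400 CPM). The median ratio of the 6 ATPases was 0.924.

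PSMD2, a scaffold of the base, had 149, 187, 152, 147 and 166 CPM in the interferon-type pairs against 156 to 215 CPM (median 178), a ratio of 0.856. PSMD1, the other large base scaffold, had 158, 165, 148, 144 and 179 CPM against 168 to 201 CPM (ratio 0.904). It overlapped only through HTO3+HTO6. The third non-ATPase of the base, the ubiquitin receptor PSMD4, had a ratio of 1.05.

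In the lid, PSMD8 had the most UMIs, with 341, 329, 274, 259 and 362 CPM in the interferon-type pairs against 328 to 376 CPM (median 342), a ratio of 0.963. HTO4+HTO8 and HTO4+HTO9 were below every other pair. PSMD6 had the lowest ratio of all members with 300 UMIs or more, 0.826, from 49.2, 41.1, 40.4, 36.6 and 40.3 CPM against 45.9 to 67.3 CPM (median 48.9). HTO2+HTO8 lay within the range of the others and the remaining 4 interferon-type pairs lay below it. The other lid members lay between 0.940 (PSMD14, the deubiquitinase that removes ubiquitin chains) and 1.02 (PSMD12). Among the chaperones, PSMD9 had 78.9, 112, 101, 78.3 and 103 CPM against 97.6 to 125 CPM, a ratio of 0.885, and PSMD5 and PSMD10 were too low, at 14.0 and 17.5 CPM in all cells, to order the pairs.

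The pairs share hashtags, and the labels do not say what a hashtag stands for, so levels were also compared within each first hashtag. Within HTO4, the 2 interferon-type pairs against HTO4+HTO6 and HTO4+HTO7 gave a ratio of 2.11 for PSMA4, 1.62 for PSMA6 and 1.55 for PSMB4 (3 of 31 members at 1.5-fold higher, against 12.3% of all genes), and 0.643 for PSMD6 (1 of 31 lower, against 18.8%). Their core ratio was 1.20 and their cap ratio 0.851. Within HTO2, where the comparison pairs were the NF-kB-type ones, PSMA4 was at 1.60 and was the only member past 1.5-fold (1 of 31, against 7.69%). PSMA6 was at 1.05 there, the core sum at 1.21 and the cap sum at 1.01. HTO3+HTO6 against HTO3+HTO5, HTO3+HTO7 and HTO3+HTO9 gave no member past 1.5-fold (backgrounds 15% and 11.8%), with PSMA5 highest at 1.35, the core sum at 0.999 and the cap sum at 0.976.

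Next, 3 sets of pairs were set against the 5 quiet pairs, a comparison added after the data were seen. NF-kB-type HTO2+HTO5 and interferon-type HTO3+HTO6 were in none of these sets. PSMA6 and PSMA3 had a different order over the sets from PSMA4. These comparisons share the quiet pairs, none of which carried HTO2. In the HTO2 sets the kind of pair thus cannot be told apart from the first hashtag. In HTO2+HTO6 and HTO2+HTO7, PSMA6 had a ratio of 2.17 and PSMA3 of 1.51 (2 of 31 at 1.5-fold higher, against 9.94% of all genes), while PSMA4 had 1.25 and PSMA1 and PSMA2 had 1.08 and 1.04. In HTO4+HTO8 and HTO4+HTO9, PSMA4 had 2.15, PSMA6 1.62 and PSMA5 1.54 (3 of 31, against 12.2%). In HTO2+HTO8 and HTO2+HTO9, which were high for both gene lists, PSMA6 had 2.17, PSMA4 2.00, PSMA3 1.90, PSMA5 1.64 and PSMA2 1.56 (5 of 31, against 10.9%). No member was 1.5-fold lower in any of the 3 (backgrounds 14.6%, 16.7% and 26.2%). In the same order, the core sum was at 1.09, 1.20 and 1.31 and the cap sum at 0.899, 0.857 and 0.916. The median gene was at 0.903, 0.936 and 0.842. A cap sum lower than in quiet pairs was thus also seen in NF-kB-type HTO2+HTO6 and HTO2+HTO7. In HTO2+HTO5 the cap sum, 3008 CPM, lay within the quiet range of 2887 to 3182 CPM. HTO2+HTO6 and HTO2+HTO7 also had more of the interferon list than the quiet pairs, at 6551 and 6430 CPM against 3671 to 4574 CPM, so the 2 lists cannot be told apart in these pairs.

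Over all 13 pairs, a smaller share of members than of all genes differed 2-fold. The highest and lowest pair differed 2-fold or more for 4 of 31 members, PSMA3 (2.19), PSMA4 (2.35), PSMA6 (2.31) and PSMD5 (2.32, on 407 UMIs), or 12.9%, against 69.3% of all genes. Among genes with 1000 UMIs or more it was 3 of 29 members (10.3%), against 28.8%. The count of members depended on the cells and the number of UMIs used. It was 19 of 31 with at most 10% mitochondrial UMIs, where 93.0% of all genes differed 2-fold. With cells thinned to 3000 UMIs it was 12, against 81.7%. Both rest on fewer cells or UMIs, and the part of counting error in these shares was not tested. For the summed cap the highest and lowest pair differed 1.23-fold and for the summed core 1.44-fold. PSMD7 (1.19) and PSMB1 (1.20) had the smallest such ratios of the 31.

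Cells that carried more PSMA4 RNA were spread through the strong interferon-type pairs and were not a few high cells. After each cell was thinned to 3000 UMIs, which left out 1 to 19 shallower cells per pair, PSMA4 had a UMI in 86.8%, 80.8%, 81.2% and 82.4% of cells in HTO2+HTO8, HTO2+HTO9, HTO4+HTO8 and HTO4+HTO9. In HTO3+HTO6 it was 67.0% (exact Clopper-Pearson 95% interval 57.4% to 75.6%), and in the 8 others 56.2% to 67.5%. Unthinned shares were 89.1% to 98.4% in the 4 pairs and 83.2% to 92.8% in the 8 others. Cells with 3 or more thinned PSMA4 UMIs were 27.4% to 38.5% in the 4 pairs and 6.55% to 15.4% in the 8 others. For PSMA6, the thinned share with a UMI was 80.8% to 90.9% in the NF-kB-type pairs and 60.7% to 68.4% in the quiet ones. Every cell type uses these genes, so no cells that should lack them were at hand to measure free RNA.

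Within each interferon-type pair, thinned cells above the pair's median of interferon-list UMIs were set against the rest, a comparison added after the data were seen. PSMA4 was 1.28-fold higher in the upper cells of HTO2+HTO8 (interval of the counts 1.04 to 1.56), 1.23 in HTO2+HTO9 (1.01 to 1.5), 1.54 in HTO4+HTO8 (1.23 to 1.93), 1.19 in HTO4+HTO9 (0.898 to 1.59) and 1.05 in HTO3+HTO6 (0.721 to 1.54). PSMA7 was below 1 in all 5, from 0.696 to 0.924, but its interval included 1 in HTO2+HTO8, HTO4+HTO8 and HTO4+HTO9. The interval of PSMA4 was above 1 in HTO2+HTO8, HTO2+HTO9 and HTO4+HTO8 and included 1 in the other 2. The core sum as a whole was 1.01 in HTO2+HTO8 (0.943 to 1.08), 1.01 in HTO2+HTO9 (0.946 to 1.08), 1.12 in HTO4+HTO8 (1.04 to 1.21), 1.06 in HTO4+HTO9 (0.954 to 1.18) and 0.850 in HTO3+HTO6 (0.762 to 0.948). Its interval was thus above 1 only in HTO4+HTO8 of these 5 and was below 1 in HTO3+HTO6. The cap sum was 0.804, 0.931, 1.04, 0.966 and 0.793 in the same order. Its interval was below 1 in HTO2+HTO8 (0.725 to 0.890) and HTO3+HTO6 (0.692 to 0.909) and included 1 in the others. Depth moved with the split in HTO2+HTO8 and HTO3+HTO6, where the upper cells had medians of 8398 and 6452 UMIs against 10630 and 9312, and the mitochondrial share was lower in the upper cells of all 5 pairs, at 14.8% against 16.2%, 14.2% against 15.0%, 13.6% against 15.7%, 13.9% against 15.7% and 15.6% against 16.2% in the same order. The part of either in these ratios was not tested.

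Among other genes of the pathway, the 3 catalytic subunits that are replaced had ratios of 0.824 (PSMB5), 0.890 (PSMB6) and 0.951 (PSMB7), and 0 of 3 passed 1.5-fold. PSMB5 had 319, 336, 320, 319 and 445 CPM in the interferon-type pairs. Their replacements PSMB8, PSMB9 and PSMB10 passed in 3 of 3, with ratios of 3.46, 5.32 and 3.16, and PSMB9 had 1358, 869, 1549, 1658 and 449 CPM in the interferon-type pairs against 162 to 473 CPM. Of the 5 activator and inhibitor genes, 2 passed: PSME1 at 1.56 and PSME2 at 2.15, the subunits of the interferon-inducible activator. PSMF1, an inhibitor of the core, had a ratio of 1.15, but all 5 interferon-type pairs (96.7 to 108 CPM) were above all 8 others (82.7 to 94.4 CPM). Of all genes tested, 0.765% were higher without overlap. The interval of its highest over its lowest pair included 1 (1.31, 0.972 to 1.76). With UMIs pooled over the pairs of each group, its ratio was 1.15 (1.05 to 1.25).

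The remaining lists held no gene past 1.5-fold. Of 6 assembly factors, POMP, which matures the core, came nearest, and was named after its values were seen. It had 1021, 867, 657, 636 and 467 CPM in the interferon-type pairs against 452 to 556 CPM in the others, a ratio of 1.37. The 4 strong interferon-type pairs were above every other pair. The 5 other assembly factors lay between 0.840 and 1.03. Of the 7 cap-associated genes, UCHL5, a deubiquitinase, was lowest at 0.701. The 4 genes that control proteasome transcription ran from 0.828 (NGLY1) to 1.21 (DDI2), with NFE2L1 itself at 1.00, and the 12 ubiquitin and segregase genes from 0.800 to 1.21.

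Dividing cells had higher summed core and cap levels (CPM) than other cells of the same pair. Cells with 5 or more UMIs of the mitosis list (9 to 72 per pair) were set against cells with none (69 to 277 per pair). The cap sum was higher in 13 of 13 pairs, by 1.30-fold to 1.76-fold (median 1.48), and the interval of the counts was above 1 in all 13. The core sum was higher in 13 of 13 pairs, by 1.04-fold to 1.51-fold (median 1.33), with the interval above 1 in 12. Without PSMA7, the summed alpha subunits had the interval above 1 in 11 pairs and below 1 in 2. For the assembly chaperones it was above 1 in 3 pairs and below 1 in 1. By gene, the median over pairs was highest for the base ATPase PSMC3, at 1.99 (1.60 to 2.69, interval above 1 in 13 of 13 pairs), then PSMD2 at 1.83 and PSMD7 at 1.73. PSMA4, at 1.12, had its interval above 1 in 4 of 13 pairs. Mitotic cells were deeper, with medians of 13181 to 17076 UMIs against 5954.5 to 9035. Doublets within 1 hashtag pair cannot be told apart from single cells, and the part of depth was not tested.

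**Figure D4:**
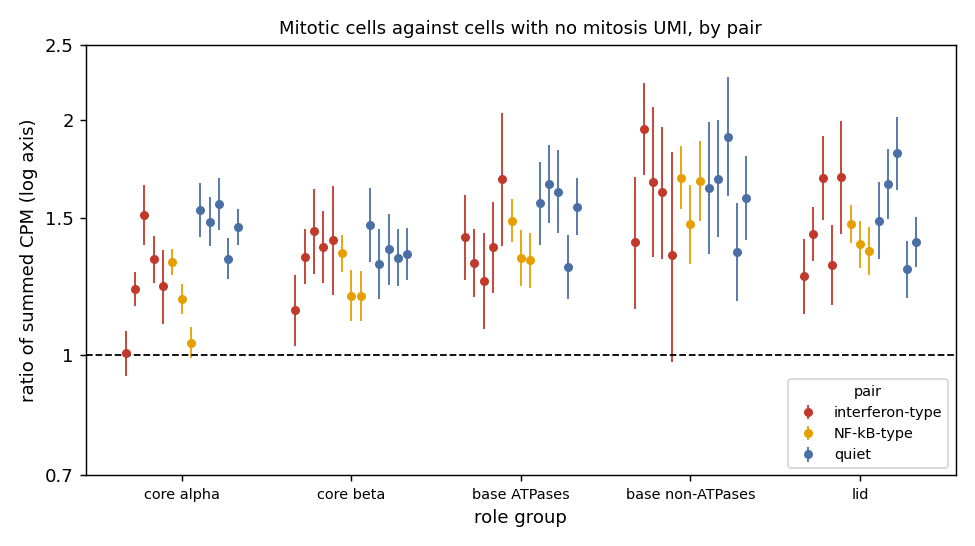
Summed CPM of 5 role groups, all but the assembly chaperones, in cells with 5 or more mitosis-list UMIs over that in cells with none, on a log axis; each point is 1 hashtag pair, coloured by kind, and bars are 95% intervals of 2 Poisson counts. All plotted points are above 1, and the lowest are the alpha subunits in HTO2+HTO8 (1.00) and HTO2+HTO7.

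PSMA6 went in opposite directions in mitotic cells of different pairs. Its ratio was 0.712 in HTO2+HTO6 (interval 0.642 to 0.787), 0.588 in HTO2+HTO7 (0.525 to 0.658) and 0.809 in HTO2+HTO9 (0.713 to 0.916), all below 1. In the quiet HTO3 pairs it was 1.30 in HTO3+HTO5, 1.36 in HTO3+HTO7 and 1.47 in HTO3+HTO9, each with an interval above 1. In HTO2+HTO6 the level was 663 CPM in mitotic cells and 932 CPM in cells with no mitosis UMI, against 438 and 322 CPM in HTO3+HTO7. The difference between pairs was not tested.

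Since interferon-type pairs had fewer mitosis-list UMIs (a median of 599 against 867 CPM, with overlapping ranges), the main ratios were also taken with mitotic cells left out. The cap ratio went from 0.910 to 0.998 and the core ratio from 1.18 to 1.25. PSMC5 went from 0.833 to 0.918 and PSMA4 from 1.96 to 2.01. The medians of the cap were then nearly equal and those of the core were further apart.

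RNA quality moved with both groups of subunits. Per 1000000 UMIs that were not mitochondrial, over all pairs, the core sum was 5825 in cells with up to 10% mitochondrial UMIs, 5367 at 10% to 20%, 4377 at 20% to 50% and 2349 above 50%. The cap sum was 3670, 3347, 2700 and 1715 in the same bins. Cells above 20%, which numbered 2962 and 1115, were left out of all other values. In the kept cells the median mitochondrial share differed little between kinds of pair, at 14.6% in interferon-type and 14.9% in other pairs.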

How the data were processed

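The deposited file held UMI counts, whole numbers that the authors obtained, without normalisation, by Cell Ranger (version 5.0.1 in the file header). Per the submitters' processing notes the version was 2.1.1 and the build GRCh38 (annotation not given in the sources used here). Of 9083 barcodes with 36601 genes and 10 hashtags, 3611 had at least 500 genes and no more than 20% mitochondrial UMIs. A pair was the 2 highest of HTO2 to HTO9, the second with 20 counts or more and 4 times the next hashtag. This left out 617 passing barcodes and kept 2994 cells with 29032973 UMIs. Multiplets were removed only where a further hashtag showed them, no doublet caller was run, and multiplets of 1 pair cannot be seen.

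Members, lists and kinds of pair were chosen with earlier results of these data known. CPM per pair was computed with exact 95% Poisson intervals, which cover counting error only. Each gene's ratio was the median CPM of the 5 interferon-type pairs over that of the 8 others. Cells are not replicates and the pairs carry no label, so no test was made. Named in full were members without overlap, the most abundant of each role group, and the 3 highest and 3 lowest ratios at 300 UMIs or more, with PSMB5 to PSMB10, PSME1 and PSME2; other genes given values were chosen after these were seen. The scripts were tested on simulated data. Alternatives covered cell filters, hashtag rule, scaling, thinning, mitotic cells and pairs left out. Packages matplotlib 3.10.9, pandas 2.3.3, scipy 1.17.1 and numpy 2.4.6 under Python 3.11.15 were used. Gene positions are from GENCODE 29, which held 32 of 32 member IDs, and promoters from RefSeq.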

Additional observations from a re-analysis of the deposited data

Results flagged for a closer look

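Among the 8 pairs that were not interferon-type, 1 pair stood apart from the rest for each of 2 lid subunits. PSMD6 had 67.3 CPM in HTO4+HTO7, and the gap to the next pair was 0.531 of the range of the 8. PSMD12 had 171 CPM in HTO3+HTO5, the lowest of the 8, with a gap of 0.530 of the range. Chance flags about 1 in 20 groups in this way. Both groups of pairs were examined for the core sum, the cap sum and some of the members only. Those members were PSMA1 to PSMA7, PSMB3, PSMB4, PSMC5, PSMD1, PSMD2, PSMD6, PSMD8, PSMD9 and PSMD12.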

How the results depend on the processing

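No paired analysis was possible because the hashtag pairs are not mapped to tumours and all cells came from 1 library. The depth limits single pairs most in PSMD5 and PSMD10, and a pair left out stands for 1 unlabelled population. PSMA1 to PSMA6 and PSMB4 kept a ratio above 1, and PSMC5, PSMD1, PSMD2, PSMD6, PSMD8 and PSMD9 one below 1, under all 21 alternatives run. The alternatives that changed only the UMI floor for counting genes could not move the ratio of a gene. PSMA7 ran from 0.816 to 1.01, PSMB3 from 0.936 to 1.15 and PSMD12 from 0.975 to 1.15. PSMA4 ran from 1.68 to 2.14. PSMA6 ran from 1.08, against others with the same first hashtag, to 1.77.

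The core ratio (1.18) was 1.08 with at most 10% mitochondrial UMIs, 1.09 with at most 50%, 1.11 with no cell filter, 1.15 with a hashtag ratio of 10, 1.27 with median-of-ratios scaling, 1.21 with scaling without mitochondrial and response genes, 1.25 without mitotic cells and 1.20 against others without NF-kB-type pairs. Leaving out 1 interferon-type pair gave 1.18 to 1.21. The cap ratio (0.910) was 0.799 with at most 10% mitochondrial UMIs, 0.931 with a hashtag ratio of 2, 0.929 with thinned cells, 0.946 with UMIs pooled over pairs, 0.975 with the mean CPM per cell, 0.952 with median-of-ratios scaling, 0.947 with scaling without mitochondrial and response genes, 0.998 without mitotic cells, 0.976 against others with the same first hashtag and 0.896 without NF-kB-type pairs. Leaving out 1 pair gave 0.897 to 0.930. Neither sum changed direction under these alternatives, though the cap without mitotic cells was nearly equal between the kinds of pair. Within single first hashtags this did not hold: the cap sum was at 1.01 within HTO2 and the core sum at 0.999 within HTO3.

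The highest pair over the lowest for the cap (1.23) was 1.47 with at most 10% mitochondrial UMIs, 1.32 with at most 50% and 1.32 with no cell filter. For the core (1.44) it was 1.70 with at most 50%, 1.75 with no cell filter, 1.61 with thinned cells, 1.53 with the mean CPM per cell, 1.70 with median-of-ratios scaling, 1.5 with scaling without mitochondrial and response genes and 1.59 without mitotic cells. The count of members with 2-fold between pairs (4) was 19 with at most 10% mitochondrial UMIs, 12 with thinned cells, 8 with the mean CPM per cell, 7 with median-of-ratios scaling and 8 without mitotic cells, while the share of all genes (69.3%) was 93.0%, 81.7%, 74.7%, 67.0% and 72.6%. The first 2 of these rest on fewer cells or UMIs.

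The count of members 1.5-fold higher (2) was 5 with median-of-ratios scaling (8.72% of all genes), 4 against others without NF-kB-type pairs (8.73%), and 1 with pooled UMIs, with at most 10% or 50% mitochondrial UMIs, with no cell filter, with a hashtag ratio of 10 and against the same first hashtag (6.09% to 13.8% of all genes). The count lower (0) was 1 with at most 10% (17% of all genes). The count higher without overlap (0) was 1 with at most 10%, against the same first hashtag, without NF-kB-type pairs and with scaling without mitochondrial and response genes (0.824%, 2.47%, 1.89% and 0.831% of all genes), and 0 to 4 when 1 pair was left out (4 without HTO3+HTO6, against 3.01%). The count lower without overlap (0) was 0 to 1 when 1 pair was left out, with 1 without HTO2+HTO8 (PSMD6, against 1.04% of all genes) and 1 without HTO3+HTO6 (PSMD1, against 3.58%). Where no construction of the alternative shows it, the cause was not tested.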
